A study of Danio rerio with 12 samples.

Results

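The genes described here are the matrix metalloproteinases (MMPs), the ADAM and ADAMTS proteases and the tissue inhibitors of metalloproteinases (TIMPs) of the zebrafish heart after cryoinjury. Members were taken by symbol (mmp, timp or adam followed by a digit, or adamts, ADAMTS-like genes included), which gave 62 of the 22736 genes of the table: 22 MMP, 5 TIMP, 15 ADAM, 16 ADAMTS and 4 ADAMTS-like rows. The adult fish were of the AB strain and carried either myd88-/-, a homozygous loss-of-function allele (hu3568) present in every cell, or myd88+/+, as their siblings did. Each genotype was sampled as untouched (UT) whole ventricles and as tissue taken from the injury 1 hour or 24 hours after it, written 1 and 24 hpci (hours post cryoinjury). There were 2 libraries for each of the 6 conditions, 12 in all, and each pooled the ventricles, or the injured tissue, of 3 fish. UT libraries hold whole ventricles and the others injured tissue only, so in every comparison with UT the injury and the part of the heart sampled cannot be told apart.

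MyD88 is the adaptor through which Toll-like and interleukin-1 receptors reach NF-κB, and it stands upstream of many inflammatory genes. MMPs are zinc proteases made as proenzymes that cleave collagens, other matrix proteins and cytokines, and TIMPs bind and block the active enzymes. ADAMs sit in the membrane and shed the outer part of ligands and receptors such as TNF and Notch. ADAMTS enzymes are secreted, anchor in the matrix and cut proteoglycans such as versican and aggrecan or process procollagen, and ADAMTS-like proteins share their ancillary domains but have no protease domain.

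Values are read counts divided by a size factor for each library and rounded, called normalized counts here, and they are not corrected for gene length, so levels are compared only within a gene. Estimated depths were 3035695 to 4121336 reads for 11 libraries and 1476129 for replicate 1 of myd88+/+ at 24 hpci, where 1 read stood for 2.54 normalized counts and the smallest level taken as visible, 3 reads, for 7.62. This library and replicate 2 of myd88+/+ at 1 hpci stood apart from their partners. At 24 hpci 12 of 46 members were over 2-fold higher in replicate 2 than in replicate 1 of myd88+/+ and 1 was over 2-fold lower, and at 1 hpci the numbers were 14 and 2. The summed fast skeletal muscle markers were 7231 in replicate 2 of myd88+/+ at 1 hpci, against 1774 in its partner. Of these sums ckma, at 756 to 2140 over all libraries, gave 1130 and 1424. The partner was raised too in some of these markers, with pvalb2 at 156 in replicate 2 and 128 in replicate 1, against at most 8 in all other libraries. Transcript of myd88 itself was counted at 32 and 37 in myd88-/- UT ventricles against 63 and 56 in myd88+/+, at 199 and 210 against 200 and 171 at 1 hpci, and at 43 and 66 against 79 and 113 at 24 hpci, so its level did not separate the genotypes in every state. All 8 rows of the cardiomyocyte list were above 0 in every library, with sums of 11213 to 12006 in myd88-/- and 13408 to 13818 in myd88+/+ before injury. At 24 hpci the sums were 4871 to 6000 in myd88-/- and 5321 and 10969 in myd88+/+, the higher one in the library of lowest depth. Every marker list summed higher in this library than in its partner, with red blood cell markers at 5661 against 3548. The cause was not tested, and high values of this library are to be read with this limit.

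Several members are neighbours in the genome (danRer11). Both rows with the symbol mmp13a lie on chromosome 10, ENSDARG00000012395 at 38593645 to 38602561 and ENSDARG00000114451 at 38610741 to 38620514, on the same strand and 8179 bases apart. Both rows with the symbol adamts15b lie on chromosome 15, 2068 bases apart on opposite strands, ENSDARG00000033544 at 17603488 to 17619306 and ENSDARG00000058252 at 17621375 to 17652807. The gene name table used here calls ENSDARG00000058252 ADAMTS8. On chromosome 1 adamts1 (673163 to 681116) is followed after 10621 bases by adamts5, on chromosome 5 adamts8a by adamts15a after 2039 bases, and on chromosome 11 timp4.1, timp4.2 and timp4.3 stand in a row. The rows of one symbol are kept apart by their gene ID, and since reads that map to several places had been removed, their levels are uncertain wherever copies share sequence.

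Of the 62 members, 46 had a mean above 5 over the 12 libraries and were tested: 12 MMPs, 4 TIMPs, 14 ADAMs, 12 ADAMTS and 4 ADAMTS-like genes. The log2 of each value plus 1 was tested with limma across all 16643 genes past this filter, and calls needed a change of more than 1.5-fold in either direction together with a p under 0.05 after Benjamini-Hochberg adjustment. The added 1 can make the fold changes of genes with low values too small. Where a library holds no read, they can also be larger than its depth can show. The p-values measure the spread between pools of fish. The filter lets in a gene through the group where it is high, so counts over the tested members are not counts over the family.

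At 24 hpci the families split. Both mmp13a collagenase rows, mmp9, adam8a, adam28, timp2b and timp4.2 were called higher than in UT ventricles in both genotypes, and mmp2, timp2a, timp4.3, adamts2, adamts5 and adamts8a were called lower in both. In myd88-/- tissue 13 of 46 members were called higher at 24 hpci than in UT ventricles and 10 lower, where 15.6% of all tested genes were called higher, 14.5% lower and 30.1% either way. In myd88+/+ tissue 12 members were called higher and 23 lower, where 19.0% of all genes were called higher, 20.9% lower and 39.9% either way. The median member changed by -0.31 in myd88-/- and -1.03 in myd88+/+ on the log2 scale, beside medians over all tested genes of -0.01 and -0.01. By family, 4 of 12 MMPs were called higher in myd88-/- and 1 lower, against 5 and 4 in myd88+/+. All 4 TIMPs were called in both genotypes, 2 higher and 2 lower. Among the 12 ADAMTS genes 1 was called higher and 3 lower in myd88-/-, against 0 and 10 in myd88+/+. In a fit of only the groups compared, 25 members were called either way in myd88-/- and 26 in myd88+/+, instead of 23 and 35. Each genotype was compared with its own UT libraries, and these counts do not test whether the genotypes differ, which is tested further on.

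**Figure D1:**
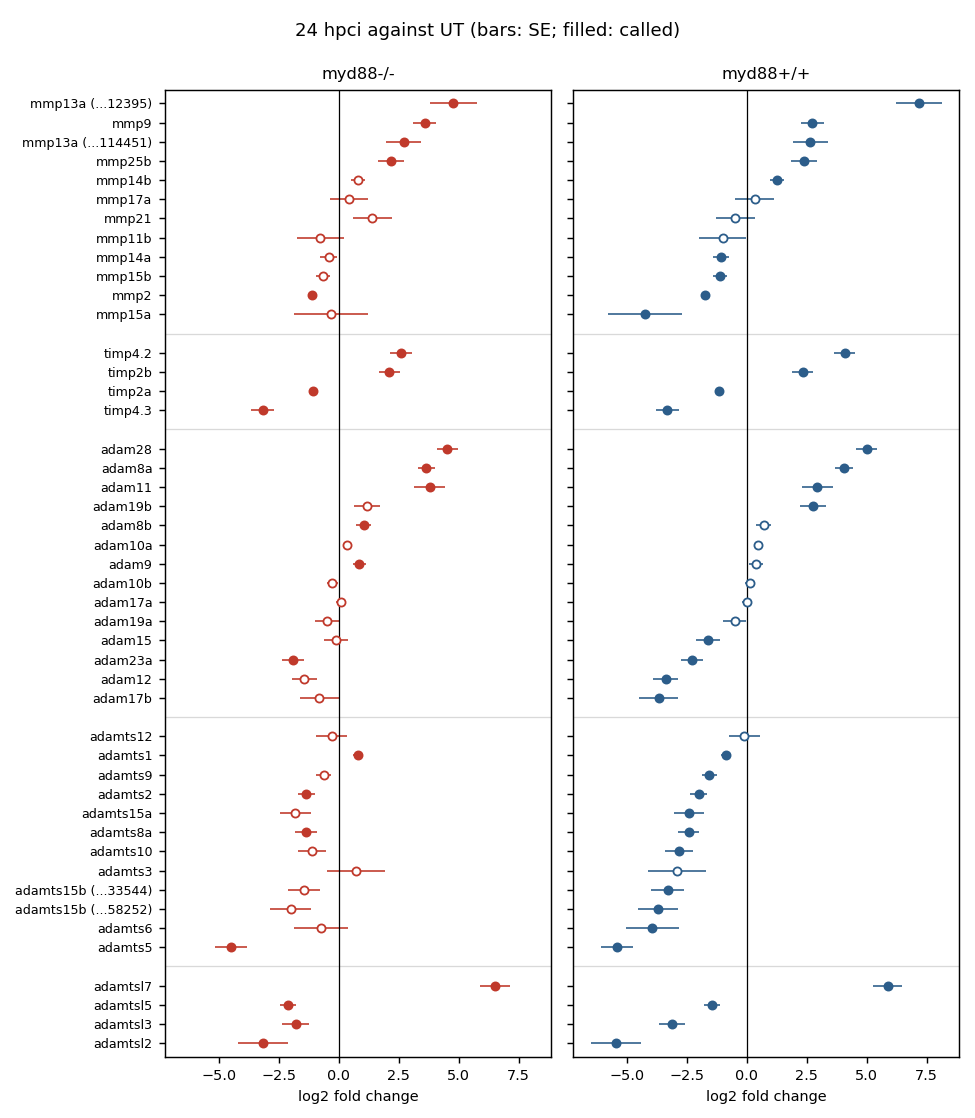
Log2 fold change (x axis) at 24 hpci against UT for the 46 tested members (rows, by family and ordered by the myd88+/+ value), in myd88-/- (left) and myd88+/+ (right); bars are standard errors, and filled points were called. Both panels show a split within the MMP, TIMP and ADAM families, and 3 of 12 ADAMTS genes are filled and below 0 in myd88-/-, against 10 in myd88+/+. Of all tested genes 14.5% were called lower in myd88-/- and 20.9% in myd88+/+.

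Without single libraries the counts moved most in myd88-/-. The 23 calls in myd88-/- became 15 without UT replicate 1, 13 without UT replicate 2 and 12 without 24 hpci replicate 2, and 12 members stayed called whichever library was left out. Those 12 were mmp9, mmp2, timp2a, timp2b, timp4.2, timp4.3, adam8a, adam11, adam28, adamts5, adamtsl5 and adamtsl7. Lost calls in myd88-/- were mmp13a (ENSDARG00000012395) without 24 hpci replicate 2 (adjusted p 0.0573, limma), mmp13a (ENSDARG00000114451) without that library or UT replicate 2, mmp25b without UT replicate 2 or either 24 hpci library, and adam23a, adamts1, adamts2 and adamts8a without 24 hpci replicate 2 or either UT library. The calls of adam8b, adam9, adamtsl2 and adamtsl3 were lost without any 1 of the 4 libraries, with limma adjusted p of 0.0512 to 0.248.

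In myd88+/+ the 35 calls became 26 to 36 with a library left out, and 25 of them stayed called each time. The calls of mmp14b and adamtsl5 were lost without UT replicate 2, that of adamts1 without UT replicate 1, and that of mmp13a (ENSDARG00000114451) without UT replicate 2 or 24 hpci replicate 1. Those of mmp14a, mmp15a, mmp15b, adam15, adamts6 and adamts15a were lost without either UT library or without 24 hpci replicate 1, with limma adjusted p up to 0.381 for mmp15a.

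The gelatinase mmp9, which cleaves denatured collagen and collagen IV and is stored in neutrophil granules, was among the earliest to change. The myd88-/- libraries held 31 and 22 normalized counts before injury (UT), then 329 and 388 at 1 hpci and 311 and 333 at 24 hpci. The myd88+/+ libraries held 114 and 32 before injury, then 285 and 600 at 1 hpci and 411 and 406 at 24 hpci. All 8 injured libraries were above all 4 UT libraries. At 1 hpci the log2 fold change over UT was 3.72 (SE 0.50, limma adjusted p 0.00133) in myd88-/- and 2.75 (SE 0.50, adjusted p 0.00948) in myd88+/+, and at 24 hpci 3.57 and 2.73. The 1 hpci call in myd88+/+ was lost without UT replicate 2 or 1 hpci replicate 2 (adjusted p up to 0.0577). With UT replicate 1 of myd88+/+ at 114, its UT pair differed more than that of myd88-/-.

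The pair of collagenase genes named mmp13a moved at different times. Row ENSDARG00000114451 had 28 and 7 normalized counts in myd88-/- before injury, then 149 and 180 at 1 hpci and 75 and 130 at 24 hpci. In myd88+/+ the same row had 85 and 14, 310 and 377, and 218 and 231 in that order of states. Both myd88-/- libraries lay below both myd88+/+ libraries at 1 and at 24 hpci. This row was called higher at 1 hpci in both genotypes (log2 fold change 3.44, SE 0.73, adjusted p 0.015 in myd88-/-, and 3.25, SE 0.73, adjusted p 0.023 in myd88+/+, limma). Both 1 hpci calls were lost without UT replicate 2 or without either 1 hpci library of the genotype (adjusted p up to 0.126 in myd88-/- and 0.144 in myd88+/+).

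Row ENSDARG00000012395 of mmp13a was near 0 until 24 hpci. Its 2 libraries held 1 and 2 normalized counts in myd88-/- before injury, then 0 and 9 at 1 hpci and 43 and 102 at 24 hpci, and in myd88+/+ 2 and 0 before injury, then 4 and 4 at 1 hpci and 282 and 217 at 24 hpci. The 24 hpci libraries stood above all others, with myd88-/- below myd88+/+. About 192 reads at 24 hpci stood against 3 in UT in myd88-/-, a ratio of 47.7 after scaling (95% interval 16.1 to 233), and about 400 against 2 in myd88+/+, a ratio of 218 (60 to 1810). These intervals cover counting error only. The limma call at 24 hpci had an adjusted p of 0.00449 in myd88-/- and 0.000388 in myd88+/+.

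The second gelatinase, mmp2, a constitutive enzyme of mesenchymal cells that is activated at the cell surface with the help of MMP14 and TIMP2, went down, and in myd88-/- its level was lower already at 1 hpci. It had 767 and 793 normalized counts in myd88-/- before injury, then 475 and 389 at 1 hpci and 367 and 361 at 24 hpci. In myd88+/+ it had 805 and 798 before injury, then 762 and 809 at 1 hpci and 259 and 214 at 24 hpci. The 4 UT libraries and both myd88+/+ libraries at 1 hpci lay between 762 and 809, and the 6 others below 476. Against UT, mmp2 fell by 0.86 on the log2 scale at 1 hpci in myd88-/- (SE 0.16, limma adjusted p 0.00924) and by 0.03 in myd88+/+ (SE 0.16, adjusted p 0.943). At 24 hpci the change was -1.1 in myd88-/- (adjusted p 0.00106) and -1.76 in myd88+/+ (adjusted p 6.78e-05). The 1 hpci call in myd88-/- was lost without either UT library or without 1 hpci replicate 2 (adjusted p up to 0.102).

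Membrane-bound MMPs did not move as a group. The counts of mmp14b, one of the zebrafish genes for the membrane enzyme MT1-MMP that cleaves collagen and activates MMP2, were 445 and 348 in untouched myd88-/-, then 469 and 303 at 1 hpci and 671 and 719 at 24 hpci, and in myd88+/+ 334 and 300, 293 and 547, and 728 and 770. At 24 hpci all 4 libraries were above all others. The change from UT was 0.82 in myd88-/- (adjusted p 0.0538, limma, not called) and 1.24 in myd88+/+ (SE 0.29, adjusted p 0.00706). Its paralogue mmp14a had 326 and 271, 231 and 198, and 242 and 205 normalized counts over the states in myd88-/-, and 307 and 298, 185 and 408, and 109 and 189 in myd88+/+. For mmp14a, both 24 hpci libraries of each genotype were below both of its UT libraries, by 0.41 on the log2 scale in myd88-/- (not called) and 1.07 in myd88+/+ (called, limma adjusted p 0.0311).

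Among the other membrane-type genes, mmp25b, whose mammalian counterpart is a leukocyte enzyme, had 29 and 17 normalized counts in myd88-/- before injury, then 25 and 11 at 1 hpci and 110 and 96 at 24 hpci. In myd88+/+ mmp25b had 16 and 18, 19 and 49, and 66 and 128. It was called higher at 24 hpci than in UT in both genotypes, with log2 fold changes of 2.16 (SE 0.54) and 2.37 (SE 0.54) and limma adjusted p of 0.0127 and 0.00629 for myd88-/- and myd88+/+. The pair mmp15a and mmp15b, genes for the membrane enzyme MT2-MMP, was called lower at 24 hpci in myd88+/+ and not in myd88-/-, and for neither gene was the difference between genotypes in this change called. In myd88-/- mmp15b had 29 and 32 normalized counts at 24 hpci, against 53 and 44 in UT ventricles (log2 change -0.65, SE 0.29, limma adjusted p 0.116). In myd88+/+ mmp15b had 30 and 38 at 24 hpci, against 76 and 71 in UT ventricles (-1.1, SE 0.29, adjusted p 0.013), so the groups did not overlap in either genotype. For mmp15a the myd88-/- values at 24 hpci were 83 and 37, against 103 and 48 in UT ventricles, and those of myd88+/+ were 0 and 48, the 0 in the library of lowest depth, against 141 and 121 in UT ventricles. No call was made for mmp17a, a GPI-anchored MMP, which had 3 to 35 normalized counts, for mmp21, known for its part in left-right patterning, with 3 to 37, or for mmp11b, a stromelysin, with 0 to 12, in any of the 12 comparisons run.

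**Figure D2:**
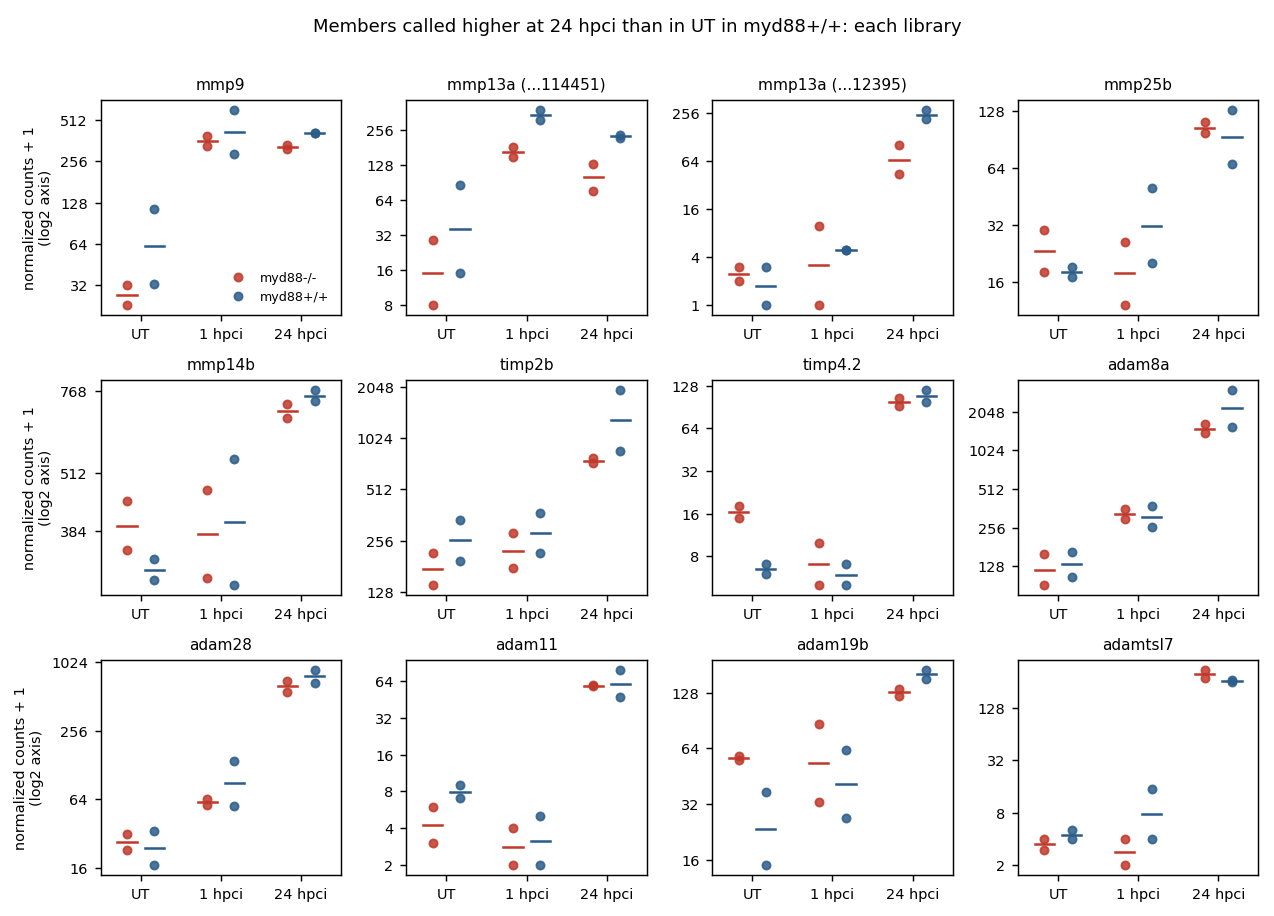
Normalized counts plus 1 (log2 axis) in each library for the 12 members called higher at 24 hpci than in UT in myd88+/+, with myd88-/- (red) left of myd88+/+ (blue) in each state; points are libraries and lines the mean of the 2 on the log scale. mmp9 and mmp13a (ENSDARG00000114451) are high already at 1 hpci, and the other mmp13a row, timp4.2, adam11 and adamtsl7 are high at 24 hpci alone.

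The TIMPs split within each paralogue group. Level of timp2b, which encodes an inhibitor that also helps MMP14 to activate MMP2, was 217 and 140 normalized counts in myd88-/- before injury, then 176 and 283 at 1 hpci and 727 and 779 at 24 hpci. In myd88+/+ timp2b had 339 and 195, 217 and 371, and 1957 and 859. It was called higher at 24 hpci than in UT, by 2.10 (SE 0.43, limma adjusted p 0.00482) in myd88-/- and by 2.33 (SE 0.43, adjusted p 0.00208) in myd88+/+. The highest value, 1957, came from the library of lowest depth. The paralogue timp2a went the other way, with 545 and 559, 500 and 420, and 276 and 249 in myd88-/- and 542 and 576, 553 and 551, and 226 and 276 in myd88+/+. All 4 libraries at 24 hpci were below the 8 others, and timp2a fell by 1.07 (SE 0.17, limma adjusted p 0.00125) in myd88-/- and by 1.16 (SE 0.17, adjusted p 0.00056) in myd88+/+.

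The adjacent genes timp4.2 and timp4.3, zebrafish relatives of TIMP4, an inhibitor known from the mammalian heart, moved apart at 24 hpci as well. Values of timp4.2 were 17 and 14 in untouched myd88-/-, then 4 and 9 at 1 hpci and 92 and 104 at 24 hpci, and in myd88+/+ 5 and 6, 6 and 4, and 119 and 98. Its UT libraries of myd88-/- were above those of myd88+/+ (log2 difference 1.34, SE 0.45, limma adjusted p 0.162, not called). At 24 hpci timp4.2 was higher than in UT by 2.59 (SE 0.45) in myd88-/- and by 4.07 (SE 0.45) in myd88+/+, both called. For timp4.3 the values were 51 and 76, 29 and 22, and 9 and 4 in myd88-/-, and 46 and 50, 27 and 47, and 5 and 3 in myd88+/+. It fell by 3.16 (SE 0.48) in myd88-/- and by 3.32 (SE 0.48) in myd88+/+ at 24 hpci, with limma adjusted p of 0.00114 and 0.000591. The third gene of the row, timp4.1, had at most 4 normalized counts in any library and was not tested.

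In the ADAM family adam28 and adam8a were the most increased at 24 hpci in myd88+/+, and adam28, adam11 and adam8a in myd88-/-. Both adam28 and adam8a are genes whose mammalian counterparts are expressed in lymphocytes and in myeloid cells. For adam28 the values were 31 and 22 in untouched myd88-/-, then 63 and 56 at 1 hpci and 563 and 695 at 24 hpci, and in myd88+/+ 33 and 16, 55 and 139, and 878 and 672. For adam8a they were 158 and 90, 300 and 356, and 1395 and 1642 in myd88-/-, and 165 and 104, 256 and 377, and 3033 and 1558 in myd88+/+. The value of 3033 came from the library of lowest depth. In both genes every library at 1 hpci lay above the UT libraries and below the 24 hpci libraries. At 24 hpci adam28 was higher than in UT by 4.53 (SE 0.43) in myd88-/- and 5.0 (SE 0.43) in myd88+/+, and adam8a by 3.65 (SE 0.37) and 4.04 (SE 0.37), with limma adjusted p of at most 0.000166. At 1 hpci adam28 was called in myd88+/+ (1.88, adjusted p 0.0249) and adam8a in myd88-/- (1.45, adjusted p 0.0312), and each call was lost without single libraries (adjusted p up to 0.184 and 0.221).

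Leukocyte marker lists were summed in the same libraries. The summed neutrophil markers, without mmp9, lay at 593 to 855 in myd88-/- UT ventricles, 881 to 1031 at 1 hpci and 1212 to 1392 at 24 hpci, and in myd88+/+ at 528 to 711, 1259 to 1412 and 1666 to 2463. Of the 10 neutrophil markers 3 were called higher at 24 hpci than in UT in myd88-/- and 6 in myd88+/+, where 15.6% and 19.0% of all tested genes were. Between genotypes 0 of the 10 were called at 24 hpci, and 0 in the difference between genotypes in this change. The macrophage list summed to 1651 to 1828, 1017 to 1098 and 3882 to 4370 in myd88-/- and to 1445 to 1554, 1495 to 2031 and 4065 to 7871 in myd88+/+. At 24 hpci 8 of its 10 genes were called higher in each genotype, beside the same shares of all tested genes. In myd88-/- 1 was called lower, cd74a, with 271 and 246 normalized counts against 455 and 474 in UT ventricles. The neutrophil sum of 2463 and the macrophage sum of 7871 came from the library of lowest depth, whose partner had 1666 and 4065. Of the neutrophil sums s100a10b gave 972 in that library and 358 in its partner, and 353 to 440 in every UT and 1 hpci library. In myd88-/- the macrophage sum at 1 hpci lay below that of UT ventricles and the neutrophil sum above it. At 1 hpci mmp9 and adam8a were called higher than in UT in this genotype. The part of these cells in the changes of mmp9, mmp25b, adam8a and adam28 was not tested. In bulk tissue fewer cells of a type and less RNA per cell cannot be told apart. The defining neutrophil gene lyz, at 0 to 16 normalized counts, was near the smallest visible level, and mpx lay at 8 to 58 in UT ventricles and 155 to 280 at 24 hpci.

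Among the other ADAM genes called higher at 24 hpci in at least 1 genotype were adam11, a catalytically inactive member known from neurons, and adam19b, a relative of the sheddase ADAM19. The myd88-/- calls of adam8b and adam9, with log2 changes of 1.03 and 0.86, were those lost without any 1 library. At 24 hpci adam11 had 57 and 58 normalized counts in myd88-/-, against 2 and 5 in UT ventricles, and 46 and 78 in myd88+/+, against 8 and 6. The rise was 3.79 (SE 0.64) in myd88-/- and 2.94 (SE 0.64) in myd88+/+. For adam19b the values at 24 hpci were 122 and 133 in myd88-/-, against 57 and 54 in UT ventricles, and 150 and 169 in myd88+/+, against 36 and 14. It was not called in myd88-/- (1.18, SE 0.55, limma adjusted p 0.124) and was called in myd88+/+ (2.77, SE 0.55, adjusted p 0.00293). The general sheddases adam10a and adam17a, which release Notch and TNF family ectodomains, stayed within 724 to 1104 and 501 to 678 normalized counts in the 12 libraries, and neither was called at 24 hpci against UT in either genotype. In myd88+/+ adam10a had a limma adjusted p of 0.0333 with a log2 fold change of 0.47, under the threshold on size.

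ADAM genes that were lower included adam17b, the second zebrafish ADAM17 gene, adam15, adam12, a protease of mesenchymal and muscle cells, and adam23a, which has no active protease site. In myd88-/- adam17b had 119 and 34 normalized counts before injury, then 37 and 12 at 1 hpci and 52 and 25 at 24 hpci. In myd88+/+ it had 367 and 347, 17 and 50, and 13 and 55. Both UT libraries of myd88-/- were below both of myd88+/+, by 2.47 on the log2 scale (SE 0.82, limma adjusted p 0.162, not called). Against UT, the change of adam17b at 24 hpci was -0.80 (SE 0.82, adjusted p 0.49) in myd88-/- and -3.68 (SE 0.82, adjusted p 0.00552) in myd88+/+.

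The same order was seen in adam15 and adam12, with the myd88+/+ UT libraries the highest of all. For adam15 the values were 157 and 76, 37 and 16, and 118 and 87 in myd88-/-, and 310 and 308, 45 and 70, and 63 and 159 in myd88+/+. It was called lower at 1 hpci in both genotypes, by 2.12 (SE 0.51, limma adjusted p 0.0261) in myd88-/- and 2.44 (SE 0.51, adjusted p 0.0174) in myd88+/+, and lower at 24 hpci in myd88+/+. In myd88-/- its change at 24 hpci was -0.11. For adam12 they were 88 and 56, 62 and 80, and 28 and 23 in myd88-/-, and 209 and 166, 56 and 51, and 8 and 35 in myd88+/+, with a change at 24 hpci of -1.43 (adjusted p 0.0636, limma, not called) and -3.38 (adjusted p 0.000898). adam23a had 8 and 5 normalized counts at 24 hpci in myd88-/-, against 27 and 26 in UT ventricles, and 8 and 4 in myd88+/+, against 28 and 36, and was called in both genotypes.

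**Figure D3:**
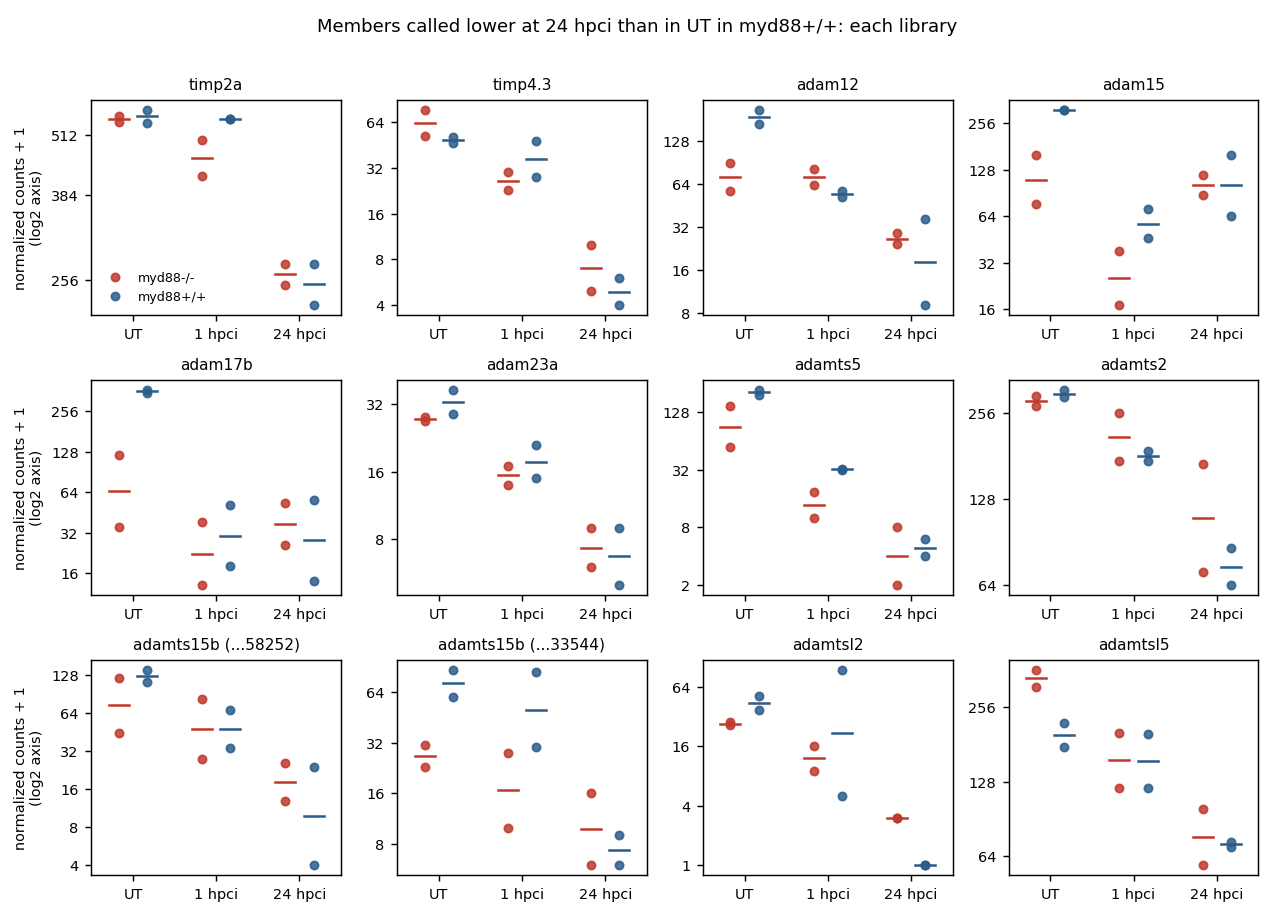
Normalized counts plus 1 (log2 axis) in each library for 12 of the 23 members called lower at 24 hpci than in UT in myd88+/+, with myd88-/- (red) left of myd88+/+ (blue) in each state; points are libraries and lines the mean of the 2 on the log scale. In adam12, adam15 and adam17b the UT libraries of myd88-/- (34 to 157) lie below those of myd88+/+ (166 to 367).

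The ADAMTS counts at 24 hpci differed most between the genotypes, and the difference in the change was called for none of these genes. In myd88-/- 10 of 12 tested ADAMTS genes had a negative change at 24 hpci, with a median of -1.24, and 3 were called lower. In myd88+/+ all 12 had a negative change, with a median of -2.63, and 10 were called lower. Of all tested genes 14.5% were called lower in myd88-/- and 20.9% in myd88+/+, with medians of -0.01 and -0.01. These changes start from UT levels that were not the same. In UT ventricles 11 of the 12 genes were lower in myd88-/- than in myd88+/+, with a median difference of -1.18. Of the 12, 2 were called there, where 2.08% of all tested genes were called. The median difference at 24 hpci was 0.58, with 0 called. Over all tested genes these medians were -0.02 and 0.04. Summed endothelial markers lay at 5121 to 6288 at 24 hpci in myd88-/-, against 8089 to 8597 before injury, and at 5474 to 6657 in myd88+/+, against 8449 to 9000. The list did not fall as a whole: of 9 genes 4 were called lower and 1 higher in myd88-/-, and 3 and 1 in myd88+/+. In myd88-/- fli1a had 658 and 677, against 645 and 655 before injury, and cldn5b had 375 and 479, against 212 and 184. Summed fibroblast markers lay at 4037 to 4690 in myd88-/-, against 5729 to 6106, and at 3588 to 4718 in myd88+/+, against 6297 to 6495. Of these 8 genes 3 were called lower in myd88-/- and 4 in myd88+/+, and 0 higher. The values of col1a1a were 1888 and 1768 in myd88-/- at 24 hpci, against 1738 and 2009 before injury, and those of hapln1a 141 and 25, against 611 and 573. The part of endothelial cells and fibroblasts in the ADAMTS changes was not tested. The aggrecanase adamts5, which cuts aggrecan and versican, had the largest fall of the family in both genotypes. It had 146 and 55 normalized counts in myd88-/- before injury, then 18 and 9 at 1 hpci and 7 and 1 at 24 hpci. In myd88+/+ the values were 194 and 218, 32 and 31, and 3 and 5. Each state was below the one before it in every library. The change at 24 hpci was -4.50 (SE 0.67, limma adjusted p 0.00102) in myd88-/- and -5.40 (SE 0.67, adjusted p 0.000254) in myd88+/+. At 1 hpci it fell by 2.72 in myd88-/- and by 2.67 in myd88+/+, calls that were each lost without single libraries (adjusted p up to 0.22 and 0.178).

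Both adamts15b rows and adamts6 followed adamts5 in the size of the fall in myd88+/+. Row ENSDARG00000058252 of adamts15b had 25 and 12 normalized counts in myd88-/- at 24 hpci, against 121 and 44 in UT ventricles, and 3 and 23 in myd88+/+, against 112 and 141. Row ENSDARG00000033544 of adamts15b had 15 and 5 in myd88-/- at 24 hpci, against 30 and 22, and 5 and 8 in myd88+/+, against 59 and 86. In both rows the 24 hpci libraries were below the UT libraries of the same genotype. They fell by 3.69 and 3.30 in myd88+/+ (limma adjusted p 0.00612 and 0.00365) and changed by -2.01 and -1.45 in myd88-/-, not called. The gene adamts6 had 0 and 1 normalized counts in myd88+/+ at 24 hpci, against 17 and 25 in UT ventricles, about 1 read against 40, a ratio of 36.6 (95% interval 6.21 to 1480, counting error only). Procollagen peptidase adamts2 had 169 and 70 normalized counts in myd88-/- at 24 hpci, against 291 and 270 in UT ventricles, and 63 and 85 in myd88+/+, against 307 and 289, and was called lower in both.

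Among the ADAMTS-like genes 1 was called higher and 3 lower at 24 hpci in each genotype. Of all tested genes 30.1% were called either way in myd88-/- and 39.9% in myd88+/+. The myd88-/- calls of adamtsl2 and adamtsl3 were lost without any 1 library. Gene adamtsl7 had 2 and 3 normalized counts in myd88-/- before injury, then 3 and 1 at 1 hpci and 284 and 351 at 24 hpci, and in myd88+/+ 4 and 3, 3 and 14, and 254 and 268. All 4 libraries at 24 hpci stood far above the 8 others, where the highest was 14. The rise at 24 hpci was 6.51 (SE 0.61, limma adjusted p 0.000122) in myd88-/- and 5.87 (SE 0.61, adjusted p 0.000107) in myd88+/+. By contrast adamtsl2, whose human counterpart binds fibrillin and is mutated in geleophysic dysplasia, had 25 and 27, 8 and 15, and 2 and 2 in myd88-/-, and 51 and 36, 4 and 94, and 0 and 0 in myd88+/+. Both myd88+/+ libraries at 24 hpci held no read, so against 3 reads in each library it was at least 8.82-fold lower than in UT. With adamtsl2 at this bound the median over the 46 members was still -1.03. Likewise adamtsl5 had 98 and 58 normalized counts at 24 hpci in myd88-/-, against 307 and 360 in untouched ventricles, and 69 and 72 in myd88+/+, against 175 and 219. Its change was -2.13 in myd88-/- and -1.46 in myd88+/+ (SE 0.33 each), both called.

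At 1 hpci fewer members differed from UT. In myd88-/- 4 of 46 were called higher (mmp9, mmp13a ENSDARG00000114451, adam8a and adamts1) and 3 lower (mmp2, adam15 and adamts5), where 10.4% of all tested genes were called. In myd88+/+ 3 were called higher (mmp9, the same mmp13a row and adam28) and 3 lower (adam15, adam17b and adamts5), where 8.73% of all genes were called. The 7 calls in myd88-/- became 4, 3 and 1 without UT replicate 1, UT replicate 2 and 1 hpci replicate 2, and mmp9 alone stayed called each time. The 6 calls in myd88+/+ became 3 without UT replicate 1, 0 without UT replicate 2 and 3 without 1 hpci replicate 2, and none stayed called each time. Without UT replicate 2 the directions of the called members were the same, and 0 of 6 passed the adjusted threshold.

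Between the injured states, 11 members were called higher at 24 than at 1 hpci in myd88-/- and 5 lower, where 34.3% of all tested genes were called. In myd88+/+ 11 were called higher and 15 lower, where 34.8% were called. Those higher in myd88-/- that stayed called without each library were mmp25b, timp4.2, adam8a, adam11, adam28 and adamtsl7, and the one lower was timp2a. The count became 8 in myd88-/- without 24 hpci replicate 2 and 16 in myd88+/+ without 1 hpci replicate 1. These comparisons use the same injured libraries as those with UT.

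The comparison of genotypes in UT ventricles asks whether the members differ before injury. In this comparison 11 of the 46 members, and 16.3% of all tested genes, had an unadjusted limma p under 0.05. After adjustment 2 of 46 members were called, both lower in myd88-/-, where 2.08% of all tested genes were called. They were adamts1, which cuts versican and aggrecan and can bind VEGF, and adamts9, a versican-cleaving relative expressed in endothelium. In UT ventricles adamts1 had 117 and 107 normalized counts in myd88-/- and 642 and 500 in myd88+/+. The groups were far apart, with a log2 difference of -2.33 (SE 0.21, limma adjusted p 0.00107). It stayed called when any of the 4 UT libraries was left out (adjusted p 0.00462 to 0.0201). For adamts9 the values were 143 and 148 in myd88-/- and 486 and 385 in myd88+/+, a difference of -1.57 (SE 0.31, limma adjusted p 0.0337). Its call was lost without any 1 of these libraries (adjusted p 0.118 to 0.306).

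After injury the levels of adamts1 came closer together. At 1 hpci adamts1 had 237 and 272 normalized counts in myd88-/- and 417 and 501 in myd88+/+, and at 24 hpci 183 and 212 in myd88-/- and 269 and 358 in myd88+/+. In both states both myd88-/- libraries were still the lower ones. The log2 difference was -0.85 (limma adjusted p 0.194) at 1 hpci and -0.65 (adjusted p 0.704) at 24 hpci, neither called. Within myd88-/- it was called higher than in UT at 1 hpci (1.18, SE 0.21, adjusted p 0.00602) and at 24 hpci (0.81, adjusted p 0.014), while within myd88+/+ it was called lower at 24 hpci (-0.87, adjusted p 0.00803). The myd88-/- calls of adamts1 were lost without single libraries (adjusted p up to 0.0701 at 1 hpci and 0.122 at 24 hpci), and that in myd88+/+ without UT replicate 1 (0.0816). The difference between genotypes in the change was 1.48 (SE 0.29, limma adjusted p 0.123) at 1 hpci and 1.68 (SE 0.29, adjusted p 0.0949) at 24 hpci, not called, and without myd88+/+ 24 hpci replicate 2, which leaves the library of lowest depth, it was 1.88 at 24 hpci and called (adjusted p 0.0134).

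**Figure D4:**
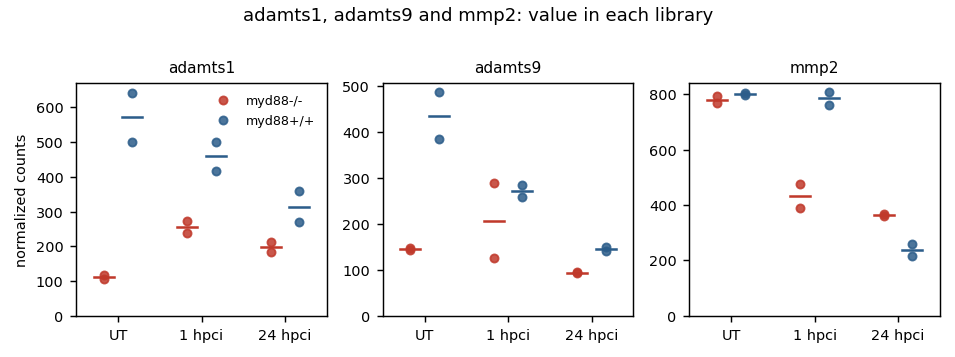
Normalized counts (linear axis from 0) in each library for adamts1, adamts9 and mmp2, with myd88-/- (red) left of myd88+/+ (blue) in each state; points are libraries and lines their mean. In UT ventricles adamts1 lies at 107 to 117 in myd88-/- and 500 to 642 in myd88+/+, and at 1 hpci mmp2 lies at 389 to 475 in myd88-/- and 762 to 809 in myd88+/+.

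In injured tissue at 1 hpci 0 of 46 members were called between genotypes by limma, where 0.120% of all tested genes were called. An unadjusted limma p under 0.05 was found for 7 of the 46 and for 8.84% of all tested genes. The smallest p was that of mmp2, with 475 and 389 normalized counts in myd88-/- and 762 and 809 in myd88+/+ (log2 difference -0.87, SE 0.16, adjusted p 0.0833). Next came adamts1, adam19a and adamtsl3. For adam19a the values were 22 and 16 in myd88-/- and 39 and 133 in myd88+/+ (difference -1.89, SE 0.49, limma adjusted p 0.227). Its high value came from the myd88+/+ library that stands apart, and with that library alone for myd88+/+ adam19a was called (-2.76, adjusted p 0.00749), as was adamtsl2. For adamtsl3 they were 4 and 4 in myd88-/- and 10 and 14 in myd88+/+ (difference -1.36, adjusted p 0.495). Summed fibroblast markers were lower too, at 3480 to 4530 in myd88-/- and 5302 to 6118 in myd88+/+ at 1 hpci. So were macrophage sums, at 1017 to 1098 against 1495 to 2031, and neutrophil sums, at 881 to 1031 against 1259 to 1412. The neutrophil sum of 1259, in replicate 1 of myd88+/+, included 316 of cpa5, which lay at 40 to 67 in the other 1 hpci libraries. The neutrophil gene mpx did not separate the genotypes, with 166 and 108 in myd88-/- and 35 and 236 in myd88+/+. Among the fibroblast genes hapln1a, acta2, pdgfra and col1a2 overlapped between the genotypes, and col1a1a, tagln, postna and postnb were lower in myd88-/-. For hapln1a the values were 611 and 384 in myd88-/- and 379 and 774 in myd88+/+, and for postna 101 and 101 against 333 and 368. No marker of these lists was called. The fast skeletal muscle sums were also lower in myd88-/-, and those of the other lists overlapped. The part of any cell type in the lower mmp2 was not tested.

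At 24 hpci 0 of 46 members were called between genotypes by limma, where 0.0300% of all genes were called. An unadjusted limma p under 0.05 was found for 3 of the 46 and for 5.13% of all tested genes. For mmp2 the order was turned, with 367 and 361 normalized counts in myd88-/- and 259 and 214 in myd88+/+ (difference 0.63, SE 0.16, adjusted p 0.551). The next were adamts1, mmp21, with 24 and 37 against 3 and 16 (1.90, adjusted p 0.704), and mmp11b, with 8 and 5 against 0 and 2 (2.08, adjusted p 0.704). The depth of myd88+/+ replicate 1, where 3 reads stood for 7.62 normalized counts, does not allow its values of 3 and 0 in the last 2 genes to be set apart from such low levels. Without the deeper library, replicate 2 of myd88+/+, 4 members were called (adam12, adamts10, mmp15a and mmp21), in a comparison that then rests on the library of lowest depth alone. Both mmp13a rows had both myd88-/- libraries below both myd88+/+ libraries without a call, with differences of -1.18 for ENSDARG00000114451 and -1.88 for ENSDARG00000012395 (limma adjusted p 0.704 each).

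**Figure D5:**
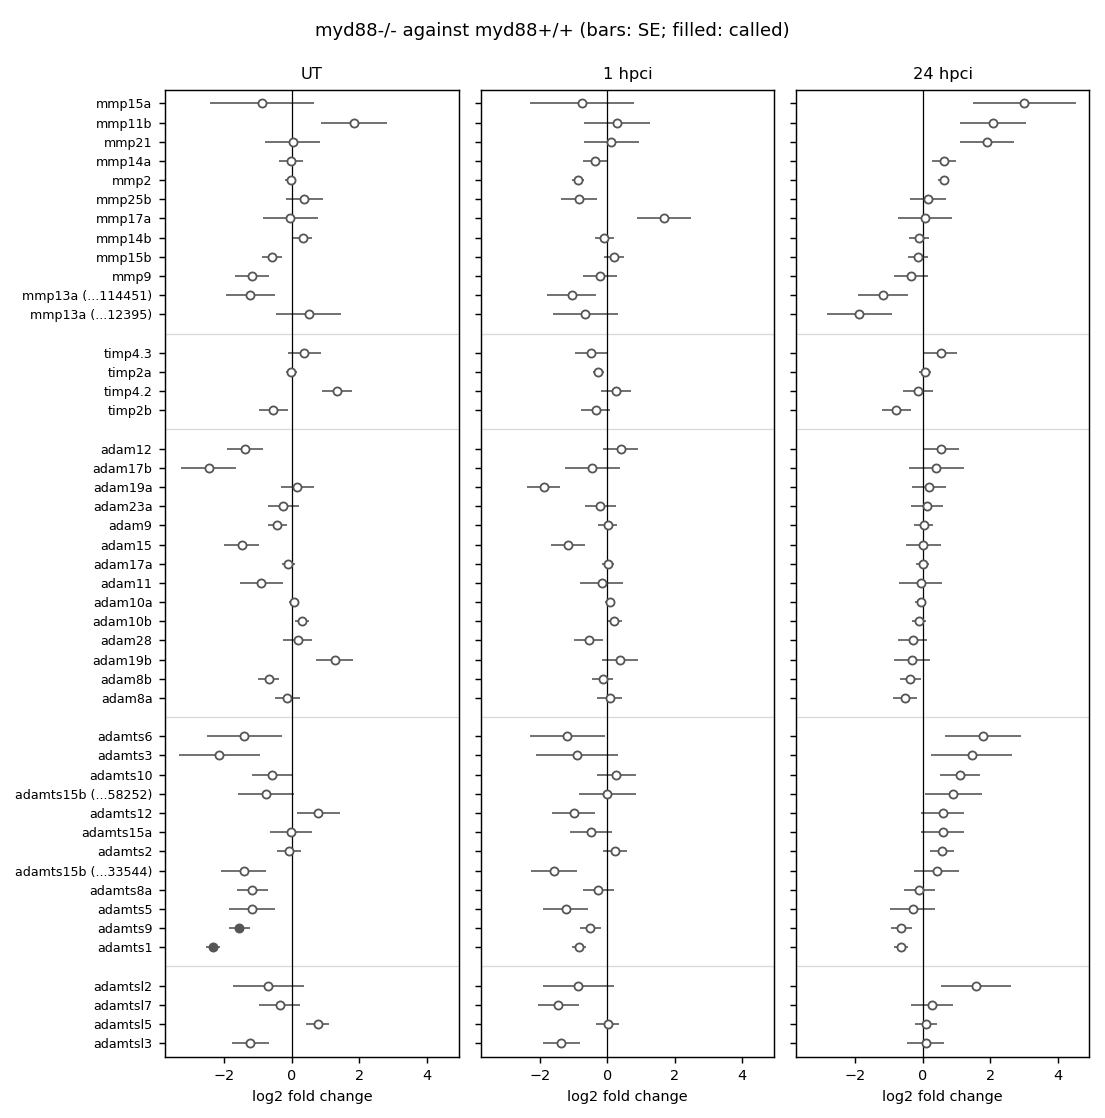
Log2 fold change (x axis) of myd88-/- against myd88+/+ for the 46 tested members (rows, by family and ordered by the 24 hpci value) in UT ventricles (left), at 1 hpci (middle) and at 24 hpci (right); bars are standard errors, and filled points were called. Only adamts1 and adamts9 in UT ventricles are filled. Among the 12 ADAMTS genes 11 are below 0 in UT ventricles and 8 are above 0 at 24 hpci, where 0 are called. The medians of all tested genes are -0.02 in UT ventricles and 0.04 at 24 hpci. The genes share the same libraries, and the myd88+/+ pair at 24 hpci includes the library of lowest depth.

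The difference between genotypes in the response to injury was tested directly. No member was called by limma in the change at 1 hpci against UT, where 0.138% of all genes were called, at 24 hpci against UT (0.0481%) or at 24 against 1 hpci (0.0180%). In the same order 5, 5 and 2 of the 46 members had an unadjusted limma p under 0.05, beside 8.56%, 8.38% and 5.95% of all tested genes. The clearest was mmp2 between 1 and 24 hpci: it changed by -0.24 in myd88-/- and fell by 1.73 in myd88+/+, a difference of 1.49 (SE 0.23, adjusted p 0.0942). With single libraries left out the difference ran from 1.35 to 1.64. It was 1.54 without myd88+/+ 1 hpci replicate 1, which leaves the library with the high fast skeletal muscle sum. Without myd88+/+ 24 hpci replicate 2, which leaves the library of lowest depth, it was 1.36. It passed the threshold under both other scalings tried. Under the 8 other settings it was not called, with limma adjusted p up to 0.763. At 24 hpci against UT the next in order after adamts1 were mmp2 (0.67), adam12 (1.95) and adam17b (2.87), with limma adjusted p of 0.487 to 0.546. At 1 hpci against UT, after adamts1, they were mmp2 (-0.83), adam19a (-2.05) and adamts9 (1.06). In the change between 1 and 24 hpci adam19a (2.08), adamts15b ENSDARG00000033544 (2.0) and mmp14a (0.99) followed mmp2. These 3 differences share libraries, and each comparison within a genotype shares its UT or 1 hpci libraries with another.

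Genes that work with the members were looked at in the same fit, 50 in all. At 24 hpci against UT 13 of the 50 were called higher and 6 lower in myd88-/-, and 16 higher and 13 lower in myd88+/+, where 15.6% and 14.5% of all tested genes were called higher and lower in myd88-/- and 19.0% and 20.9% in myd88+/+. The medians of the 50 were -0.02 in myd88-/- and -0.06 in myd88+/+. Among activators, plaua, which encodes the urokinase that turns plasminogen into plasmin, had 487 and 635 normalized counts in myd88-/- at 24 hpci, against 33 and 44 in UT ventricles, and 1041 and 551 in myd88+/+, against 10 and 19. It rose by 3.83 (SE 0.43) in myd88-/- and 5.68 (SE 0.43) in myd88+/+. Of the ADAM10 partners, tspan33a rose by 4.60 and 5.22 (SE 0.45 each), to 118 and 147 normalized counts in myd88-/- and 190 and 174 in myd88+/+, against 3 to 5 in UT ventricles.

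Shed substrates included hbegfb, a growth factor of the EGF family, which was high already at 1 hpci, with 707 and 935 normalized counts in myd88-/-, against 16 and 28 in UT ventricles, and 694 and 735 in myd88+/+, against 28 and 39. The log2 fold change at 1 hpci was 5.20 in myd88-/- and 4.39 in myd88+/+ (SE 0.30 each), and at 24 hpci 4.55 and 4.38. For tnfa, the classic ADAM17 substrate, the values at 24 hpci were 8 and 8 in myd88-/-, against 6 and 1 in UT ventricles, and 119 and 78 in myd88+/+, against 0 and 0. In myd88-/- it was not called, and in myd88+/+ it was at least 30.9-fold higher against 3 reads in each UT library. The notch1b receptor gene had 281 and 138 normalized counts at 24 hpci in myd88-/-, against 943 and 533 before injury, and 86 and 249 in myd88+/+, against 1352 and 1606, and was called lower in both genotypes (-1.84 in myd88-/- and -3.32 in myd88+/+, SE 0.48 each). The difference between genotypes in the 24 hpci change was tested and not called in any of the 50 genes.

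Of 15 matrix substrates 3 were called higher at 24 hpci and 4 lower in myd88-/-, and 4 higher and 7 lower in myd88+/+, where 30.1% and 39.9% of all tested genes were called either way in myd88-/- and myd88+/+. Versican gene vcanb, a substrate of ADAMTS enzymes, had 2106 and 2047 normalized counts in myd88-/- at 24 hpci, against 213 and 242 in UT ventricles, and 3048 and 2337 in myd88+/+, against 416 and 383. It rose by 3.19 in myd88-/- and 2.74 in myd88+/+ (SE 0.42 each). Elastin gene elnb fell, with changes of -5.40 in myd88-/- and -5.94 in myd88+/+ (SE 0.83 each), and aggrecan gene acana changed by -1.77 in myd88-/- and -3.14 in myd88+/+ (SE 0.52 each), both called.

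The 16 members left untested had a mean of 5 or less. They were mmp11a, mmp13b, mmp16b, mmp17b, mmp20b, mmp23bb, mmp24, mmp25a, mmp28, mmp30, timp4.1, adam22, adamts14, adamts16, adamts17 and adamts18. The highest value among them was 22 normalized counts, of adamts14, in replicate 2 of myd88+/+ at 1 hpci, where its partner had 0. In the same library adamts16 had 15, against at most 3 in the 11 others.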

How the data were processed

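Polyadenylated RNA from pools of injured heart tissue or untouched ventricles was sequenced as stranded single-end reads of 75 bases. Per the study's methods and the submitters' processing notes, reads were trimmed (Trimmomatic 0.39) and aligned to danRer11 (STAR 2.7.3a), duplicates (Picard 2.21.7), multimapping, ribosomal and mitochondrial reads were removed, and genes of Ensembl 99 were counted (featureCounts 1.6.5). The deposited values, treated here as a score, are counts that the authors divided by DESeq2 1.26.0 size factors and rounded to whole numbers. Count models were therefore not used. The planned test took log2(value + 1) of all 12 libraries in limma 3.58.1 (R 4.3.3) with 6 group means, a variance trend and genes with a mean above 5. Depth was estimated from the spacing of the low values, and 3 reads were taken as the smallest visible level. Precision is limited by 2 libraries a group.

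Named with values were all tested MMPs and TIMPs, of the ADAM and of the ADAMTS genes the 5 largest increases and decreases called at 24 hpci in myd88+/+, in comparisons of genotypes the called members or the 4 smallest p, and of the related genes at most 4 in each direction. Other members named were chosen after their values were seen. Of 70 related genes listed, 57 were in the table and 50 were tested. The result of 1 of them is not reported here. Members and lists were chosen with earlier results of these data known. Alternatives were another pseudocount (0.5 or 5), no filter or a mean above 20, quantile normalization, upper-quartile scaling, a fit of only the groups compared, no variance trend, a replicate block (also within genotype, added later) and each library left out. The test recovered the size of changes put into simulated counts, for genes with a mean above 20 and with the same spread in all genes and libraries. Its power in the real libraries was not measured. No genome sequence was used.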

Additional observations from a re-analysis of the deposited data

How the results depend on the processing

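Of 1339 fold changes of named genes under other settings, 1246 kept their side of the threshold, 91 lost a call and 2 gained one. With a library left out the numbers were 432, 148 and 8 of 588, and 0 changed direction in any setting. The count of called members between genotypes in UT ventricles was 1 without a variance trend and 1 with the replicate block, where adamts9 was lost, instead of 2. At 1 hpci against UT in myd88+/+ it was 0 with only the groups compared and 3 without a variance trend, instead of 6, and at 24 against 1 hpci in myd88+/+ it was 11 with only the groups compared, instead of 26. For 24 hpci against UT it was 25 in myd88-/- and 26 in myd88+/+ with only the groups compared. Quantile normalization gave 30 and 35 there, instead of 23 and 35. For the difference between genotypes in the change between 1 and 24 hpci it was 1 (mmp2) under quantile normalization and 1 under upper-quartile scaling, instead of 0. The cause of these shifts was not tested. Upper-quartile scaling moved the median of all genes from -0.033 to -0.139 at 1 hpci against UT in myd88-/-.

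With a library left out the counts ran from 1 to 1 between genotypes in UT ventricles, 0 to 2 at 1 hpci and 0 to 4 at 24 hpci. In myd88-/- they ran from 1 to 5 (1 hpci against UT), 12 to 19 (24 hpci against UT) and 8 to 14 (24 against 1 hpci), and in myd88+/+ from 0 to 4, 26 to 36 and 16 to 24. For the differences in response they ran from 0 to 1, 0 to 4 and 0 to 3. A group left with 1 library was assumed to vary like the others.

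Replicate numbers did not pair the libraries across genotypes: over 15 pairs of groups the correlation of same-numbered deviations ran from -0.351 to 0.282, with 4 above 0.1. These 4 were within a genotype, all 3 pairs of myd88-/- (0.165, 0.23 and 0.277) and 1 and 24 hpci of myd88+/+ (0.282). A replicate block within genotype, chosen after seeing the data, gave 4 calls instead of 2 between genotypes in UT ventricles (adam15 and adam17b added). It gave 9, 27 and 19 calls in myd88-/- and 8, 36 and 29 in myd88+/+. The 135 results of named genes, a set without the calls that this block added, kept their side of the threshold. The replicate block across genotypes gave 7, 21 and 15 calls in myd88-/- and 6, 34 and 21 in myd88+/+ in the order above. Crossing the numbers, an alternative chosen after seeing the data, gave 0 calls between genotypes at 1 hpci and 0 at 24 hpci. Depth limits values under about 3 reads, most of all in replicate 1 of myd88+/+ at 24 hpci.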
